A study of Mus musculus with 4 samples.

Results

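Ribosomal protein genes encode the protein components of the large (Rpl) and small (Rps) subunits of the cytosolic ribosome. Rows were selected by symbol, as Rpl or Rps followed by a number, leaving out pseudogenes and the Rps6k kinases. The selection gave 82 rows of 15690 genes, of which 49 were Rpl and 33 were Rps. It took in Rps19bp1, a binding protein of Rps19 that is not itself part of the ribosome. The rule uses no expression value, but the gene set was proposed, and Rpl4 named as a departing member, with earlier results of these data known.

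The data came from single myeloid cells sorted out of mouse brains bearing lung cancer metastases, under the sort labels BMDM (bone marrow-derived macrophages) and microglia. All mice were athymic nude on a Balb/C background, of the strain CAnN.Cg-Foxn1nu/Crl, without a normal thymus and so without most T cells, and no animal age or number is given in the labels. Each sort was taken without radiation, from tumors labelled small, and after whole brain radiation therapy (WBRT), labelled d3/5x2 Gy, from tumors labelled not stratified. Each of the 4 groups was 1 plate of 384 wells, so plate, radiation and tumor stage label cannot be told apart, and no difference below has a replicate check. Intervals are 95% and cover counting error only.

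After filtering, 234 wells were kept for BMDM without WBRT, 262 for BMDM with WBRT, 157 for microglia without WBRT and 151 for microglia with WBRT, and values below follow this order of plates. Pooled transcript counts ranged from 649107 to 2513025 per plate. The microglia plate with WBRT stood apart, with a median of 30.6% of counts from the spiked-in ERCC RNA, against 6.92% to 7.86% on the other 3 plates, and 15 of its wells were left out for that share alone. The recruited-cell marker Ccr2 had 389 and 969 counts per 1000000 counts of the plate (CPM) on the BMDM plates and 0 and 6.16 on the microglia plates, and the microglia marker P2ry12 had 90.1, 75.2, 336 and 466 CPM. The summed level of 12 dendritic cell markers was 2808 CPM on the BMDM plate without WBRT and 570 on the BMDM plate with it, and that of 8 border-associated macrophage markers was 423 and 1950 CPM. On the microglia plates the border-associated macrophage markers summed to 129 CPM without and 604 CPM with WBRT, and 12 monocyte markers to 181 and 586 CPM. The dendritic cell markers summed to 1038 and 896 CPM there, above the BMDM plate with WBRT, so that sum is not particular to dendritic cells. The part of these marker differences in the results below was not tested, apart from the values given without dendritic cell-like wells. The summed level of 6 astrocyte markers was 910 CPM on microglia with WBRT and at most 101 CPM elsewhere. The same 384 well names are used on every plate, so shared names say nothing of shared cells.

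As background, ribosomal proteins are made in matched amounts from many separate genes, and surplus protein is degraded. Their mRNAs begin with a terminal oligopyrimidine (TOP) motif, a C followed by a run of pyrimidines at the transcription start, through which mTOR signaling and LARP1 control their translation and stability together. In macrophages and microglia, as in most cells, they are among the most abundant mRNAs. Some ribosomal proteins, Rpl5 and Rpl11 among them, also bind Mdm2 when ribosome assembly is disturbed.

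Promoter sequence was looked at because TOP transcription starts are the shared feature that the selection by symbol did not use. RefSeq promoter entries (GRCm38.p6) were matched for 62 of the 82 members. In the window from 5 bases before to 10 after the annotated start, a C followed by at least 4 further pyrimidines was present in 45.2% of these members and in 21.2% of all 27025 genes with an entry. Between 250 bases before and 50 after the start, CTCTTTCC on the gene's strand was present in 12.9% of members and 1.76% of all genes, and its inner part CTTTCC in 38.7% and 16.0%. CCGGAAG on either strand was present in 38.7% of members and 9.93% of all genes, and TATAAA on either strand in 9.68% and 15.7%. These are matches of letters, not sites shown to be used.

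The following 30-base windows run from 20 bases before to 10 bases from the annotated start on the gene's strand. They belong to the members that differed most between plates or stood highest, with Rps6, Rpl35, Rpl28 and Rps18 as examples of a pyrimidine run across the start, and were picked after the values were seen. Capitals mark the longest pyrimidine run of at least 5 bases.
Rpl4, chr9:64173367-64173396, plus strand: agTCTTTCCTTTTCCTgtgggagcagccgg
Rps26, chr10:128626497-128626526, minus strand: agcgggtcgggcaagccgccggaTCCTCTT
Rps9, chr7:3704021-3704050, plus strand: gtccaaccgccttgTCTCTCTTTgtctcgg
Rpl10, chrX:74270796-74270825, plus strand: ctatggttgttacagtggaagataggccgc
Rps6, chr4:86857358-86857387, minus strand: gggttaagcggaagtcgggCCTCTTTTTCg
Rpl35, chr2:39005122-39005151, minus strand: gaagtcggccccgCCCTTTCCTCTTTCTCT
Rpl28, chr7:4792945-4792974, plus strand: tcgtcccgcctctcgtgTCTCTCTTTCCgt
Rps18, chr17:33955656-33955685, minus strand: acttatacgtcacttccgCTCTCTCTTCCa
The run of Rpl4 began 18 bases before the annotated start and was 14 bases long, whereas that of Rps6 began 1 base before it. Rpl10 had no run over 2 bases in its window. Annotated starts can lie some bases away from the start used in these cells.

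Ribosomal protein transcripts made up 9.15% (9.10 to 9.20) of pooled counts in BMDM without WBRT and 6.54% (6.51 to 6.57) in BMDM with WBRT. They made up 7.67% (7.62 to 7.73) in microglia without WBRT and 5.41% (5.35 to 5.46) in microglia with WBRT. The share was therefore 1.40-fold lower (1.39 to 1.41) on the irradiated BMDM plate and 1.42-fold lower (1.40 to 1.44) on the irradiated microglia plate. It was 1.19-fold higher (1.18 to 1.20) in BMDM than in microglia without WBRT and 1.21-fold higher (1.20 to 1.22) with it. All 4 differences exceed counting error, which says nothing of the spread between animals.

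Single wells overlapped widely between plates. Over wells, the share ran from 1.77% to 16.7% with a median of 8.52% in BMDM without WBRT, and from 0.616% to 13.8% with a median of 6.25% in BMDM with WBRT. It ran from 1.35% to 18.0% with a median of 7.70% in microglia without WBRT, and from 0.876% to 16.1% with a median of 5.54% in microglia with WBRT. Of the irradiated wells, 205 of 262 BMDM wells and 114 of 151 microglia wells lay below the median of the matching plate without WBRT. Across wells the Spearman correlation of share with depth was 0.27, -0.02, -0.26 and -0.39 on the 4 plates, a description over wells of 1 library each. With every well weighted alike, the share in microglia with WBRT was 6.25% in place of 5.41%. Against the spike-in, the plates held 1.27, 0.763, 0.972 and 0.214 ribosomal protein counts per ERCC count, the last on the plate where ERCC counts were high against all genes.

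**Figure D1:**
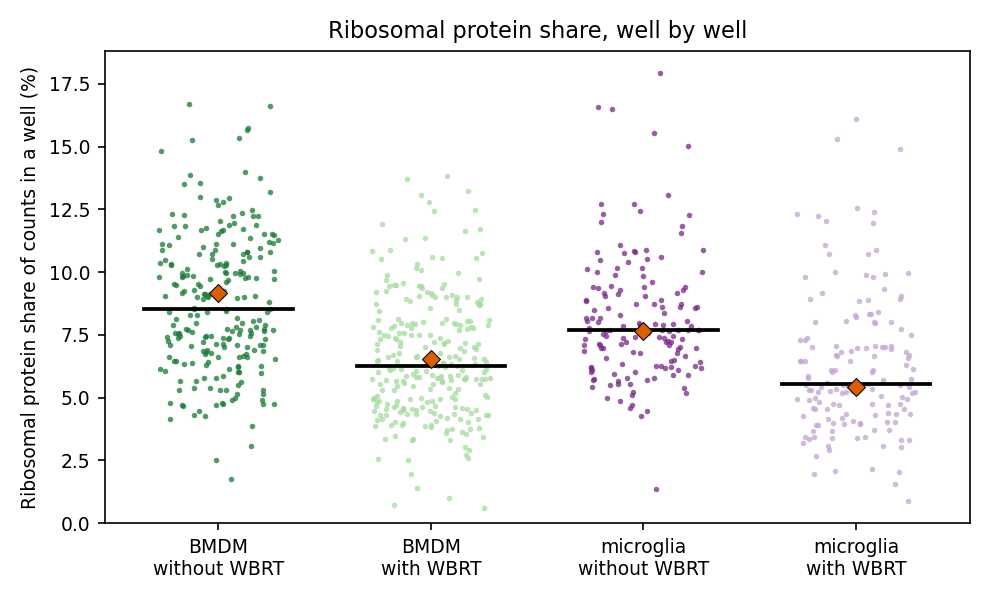
Share of a well's counts from the 82 ribosomal protein rows (vertical axis, %) for each kept well (points) on the 4 plates. Bars are well medians, 8.52%, 6.25%, 7.70% and 5.54%, and diamonds are pooled shares; wells of all plates overlap while both plates with WBRT sit lower.

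The members covered a wide range of levels. At least 20 CPM on 1 plate was reached by 72 members, and at least 100 CPM on all 4 plates by 67. Among the 10 with the highest mean were Rpl4, Rps29, Rps9, Rpl10, Rpl41, Rps12, Rpl17, Rpl13 and Rpl23. Counts here are of transcript molecules tagged near the 3' end, so levels of different genes are set side by side without division by transcript length. Rpl4, which encodes a large subunit protein that binds early to the assembling ribosomal RNA, had 3998, 1442, 4426 and 1756 CPM. It was the highest of all members on both plates without WBRT, ninth on BMDM with WBRT and second on microglia with WBRT. Rps29, a small subunit protein, had 2913, 2362, 2731 and 1881 CPM and ranked first on both plates with WBRT. Rps9, a small subunit protein with a role in decoding accuracy, had 2984, 1878, 1831 and 1269 CPM, highest in BMDM without WBRT. Rpl10, which joins the large subunit late in its assembly, had 2107, 2099, 1681 and 1603 CPM, nearly level between the plates of a sort.

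**Figure D2:**
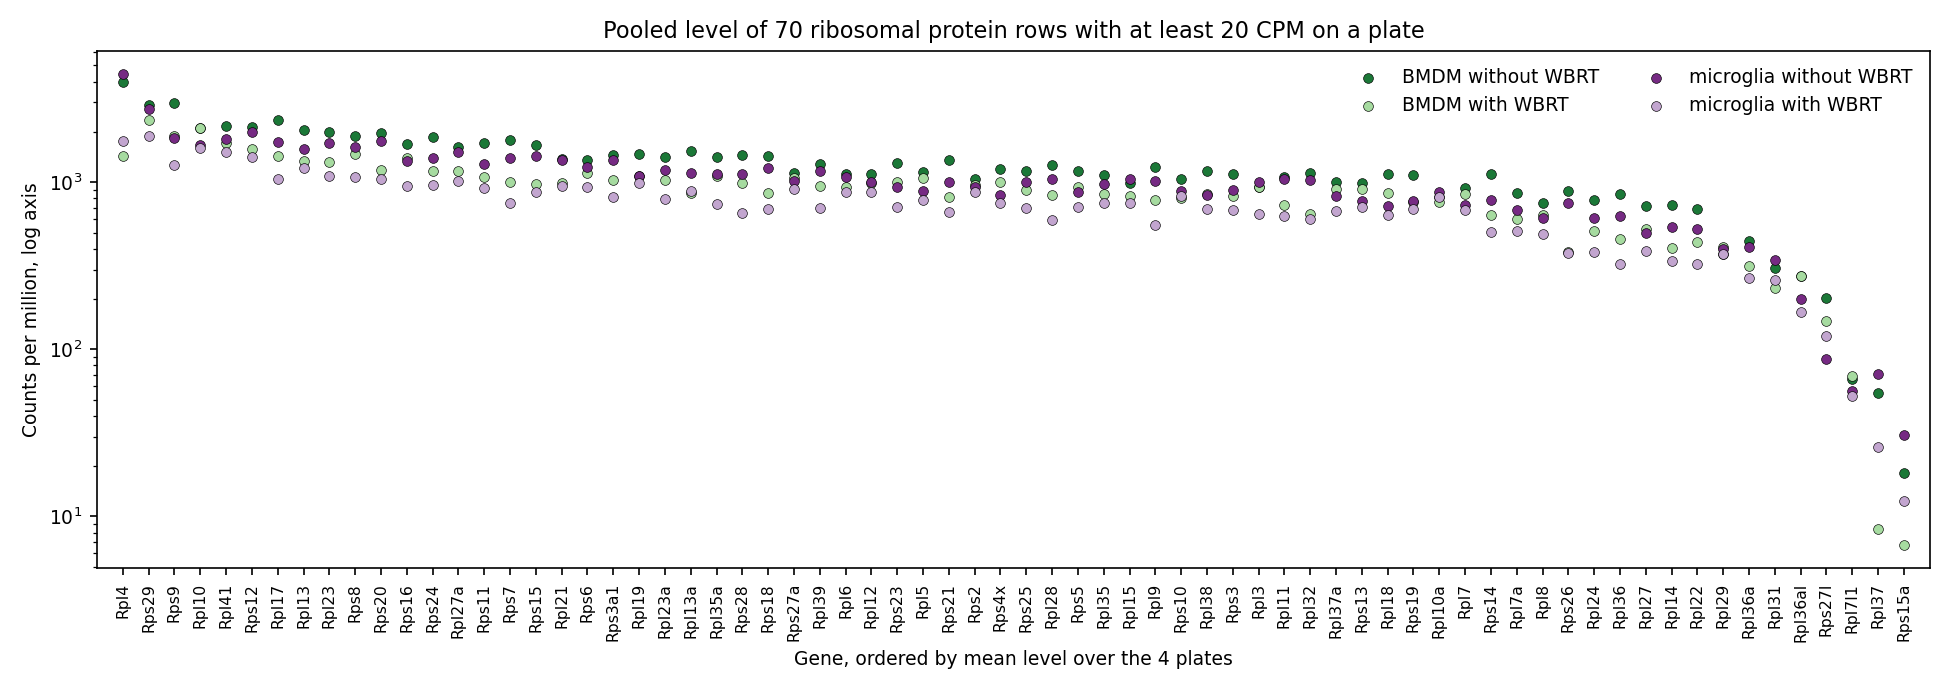
Pooled level in CPM (log axis) of 70 of the 72 members with at least 20 CPM on a plate, ordered by mean over the plates, with 1 point per plate. Rpl4 shows the widest gap between plates without WBRT (3998 and 4426) and with WBRT (1442 and 1756) among the abundant members, and the levels drop off from Rpl36a to Rps15a.

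The other 10 members had under 20 CPM on every plate. They were Rps19bp1, Rps4y2, Rpl34, Rpl22l1, Rpl30, Rpl39l, Rps27, Rpl10l, Rpl3l and Rpl26, of which Rps27, Rpl10l, Rpl3l and Rpl26 had no count on at least 1 plate. Rpl26 had 0, 2, 0 and 0 counts, and a count of 0, taken to allow up to 3 counts, corresponds to at most 2.37, 3.43 and 4.62 CPM on the 3 plates where it was not seen. Rps27 had 1, 6, 0 and 1 counts and Rpl30 had 2, 10, 1 and 5. Rpl26, Rps27, Rpl30 and Rpl34 are core ribosomal proteins needed by every cell, so their rows are taken as not measuring these genes. Many ribosomal protein genes have processed copies elsewhere in the genome, and reads that fit several places can be lost or moved in counting. In GENCODE M21 transcripts, 100% of the 50-base words in the last 300 bases of Rps27 also occurred in other genes, and 64.5%, 80.9% and 54.2% for Rpl26, Rpl30 and Rpl34. The same share was 100% for the abundant Rpl10 and Rps12 and 0% for Rpl4 and Rpl37, and over 81 members its Spearman correlation with the mean level was -0.02. At least 50% of the words were shared by 48 members, and levels of those members are uncertain. The paralogs with tissue-restricted use stayed far below their partners: Rpl3l had 0.69 CPM on average against 878 for Rpl3, Rpl10l 0.99 against 1872 for Rpl10, and Rpl39l 1.86 against 1028 for Rpl39. Rpl7l1 had 66.4, 69.2, 56.0 and 52.4 CPM and Rpl7 had 924, 853, 729 and 680. The microglia values were below those of BMDM for both, past counting error for Rpl7 but not for Rpl7l1. Rpl36al, a paralog of Rpl36a, had 274, 276, 201 and 166 CPM, and Rpl36a had a mean of 359 CPM.

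With WBRT, nearly all members were lower in BMDM. A log2 ratio here is the log2 of CPM plus 5 on one plate over CPM plus 5 on the other, and it is past counting error when the exact 95% interval of the ratio of the counts leaves out 1. Of the 71 members with at least 20 CPM on either BMDM plate, 67 had a lower level with WBRT, beside 44.1% of all genes passing that floor. Past counting error, 64 were lower, beside 21.0% of all genes, and 0 were higher, beside 25.9%. A 2-fold decrease was passed by 3 members, beside 6.14% of all genes. The median log2 ratio over members was -0.45, and over all 6551 genes 0.08. The middle 50% of members lay between -0.66 and -0.28, and the medians of large and small subunit members were both -0.45.

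In microglia, 71 of 72 members were lower with WBRT, beside 46.3% of all genes passing the same floor. Past counting error, 58 were lower, beside 17.0%, and 0 were higher, beside 19.3%. A 2-fold decrease was passed by 3, beside 7.56% of all genes. These were Rpl4 and, on few counts, Rpl37 (62 without and 17 with WBRT) and Rps15a (27 and 8). Rps15a had at most 30.9 CPM on any plate, far under most core members. The median over members was -0.49, and over all 6723 genes 0.06. The middle 50% lay between -0.68 and -0.25, and the medians were -0.41 for large and -0.51 for small subunit members. With every well weighted alike the microglia median was -0.30, and after thinning each well to 1000 molecules it was -0.28. It was -0.82 among wells with at least 1000 CPM of the nuclear RNA Malat1, of which this plate had 45.

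The order of members by their log2 ratio with WBRT was similar in both sorts. The BMDM pair and the microglia pair share no plate. Over the 67 members with at least 100 CPM on every plate, the log2 ratios with WBRT had a Pearson correlation of 0.79 and a Spearman correlation of 0.75 between the pairs. Over all 1012 genes passing the same floor these were 0.50 and 0.48, and without Rpl4 the members gave 0.75 and 0.74. The points share counting method, gene length and any copies elsewhere in the genome. Transcript length, GC content and the share of tail words found in other genes had Spearman correlations between -0.02 and 0.20 with these ratios over the same 67 members.

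**Figure D3:**
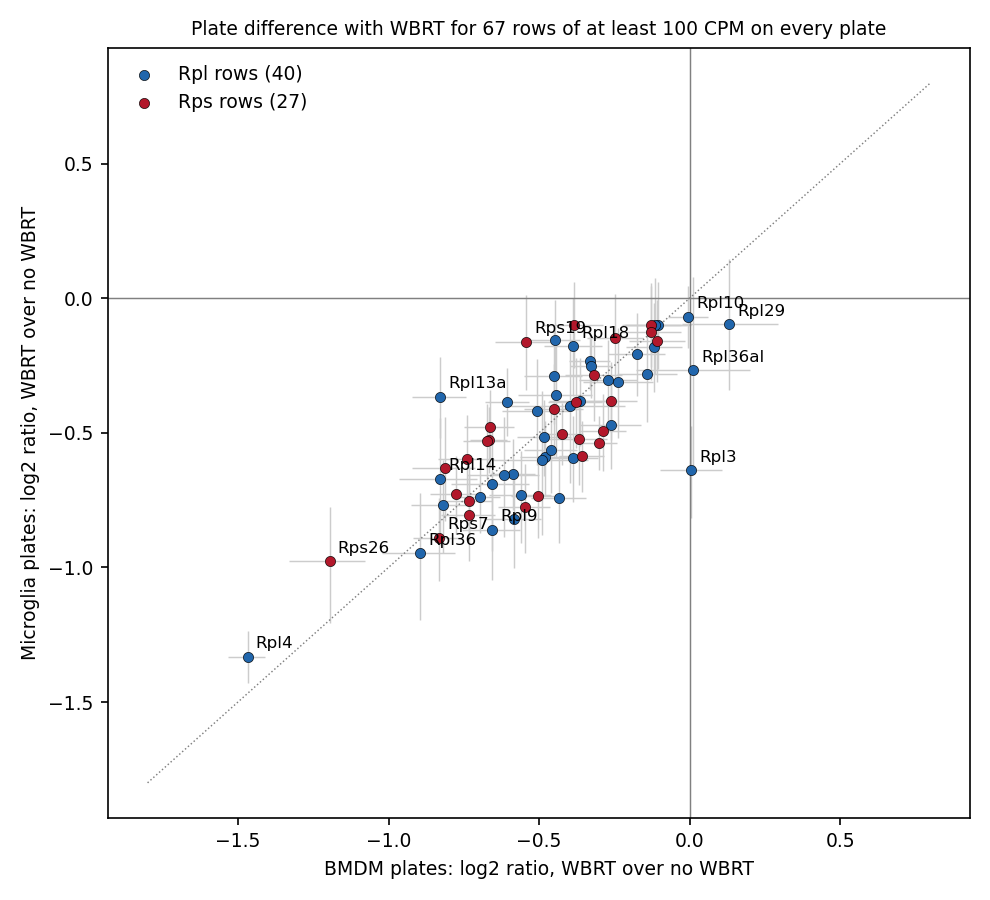
Log2 ratio of WBRT over no WBRT on the BMDM plates (horizontal) and on the microglia plates (vertical) for the 67 members with at least 100 CPM on every plate; bars are 95% counting intervals and the dotted line marks equal values. Rpl4 (-1.47, -1.33) and Rps26 (-1.20, -0.98) lie lowest, and Rpl10 and Rpl29 lie near 0.

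Rpl4, known beforehand to depart, had the lowest log2 ratios among the abundant members. It had 3998 CPM without WBRT and 1442 with it in BMDM, a 2.77-fold difference (2.66 to 2.89), and 4426 and 1756 CPM in microglia, a 2.52-fold difference (2.36 to 2.69). Its log2 ratios of -1.47 and -1.33 compare with member medians of -0.45 and -0.49. Its part in all ribosomal protein counts was 4.37% and 2.20% in BMDM and 5.77% and 3.25% in microglia. The gene lies at chr9:64173387-64178562 (GRCm38.p6), and none of its 3' tail words occurred in another gene of the annotation.

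The difference in Rpl4 was seen well by well. In BMDM, the lowest, median and highest wells had 939, 3923 and 9151 CPM without WBRT, and 0, 1298 and 4462 with it. In microglia they had 1694, 4421 and 14939 CPM without WBRT, and 0, 1558 and 10845 with it. The ranges of wells overlapped, but 256 of 262 irradiated BMDM wells and 139 of 151 irradiated microglia wells lay below the median of the plate without WBRT. In reverse, 6 of 234 and 0 of 157 wells without WBRT lay below the median of the plate with it. Within BMDM without WBRT, Rpl4 followed the other members less than most did: its Spearman correlation over wells with their summed level was 0.24, where the median of 68 members was 0.49. On the other plates its correlations of 0.64, 0.37 and 0.40 lay near the member medians of 0.61, 0.34 and 0.39.

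**Figure D4:**
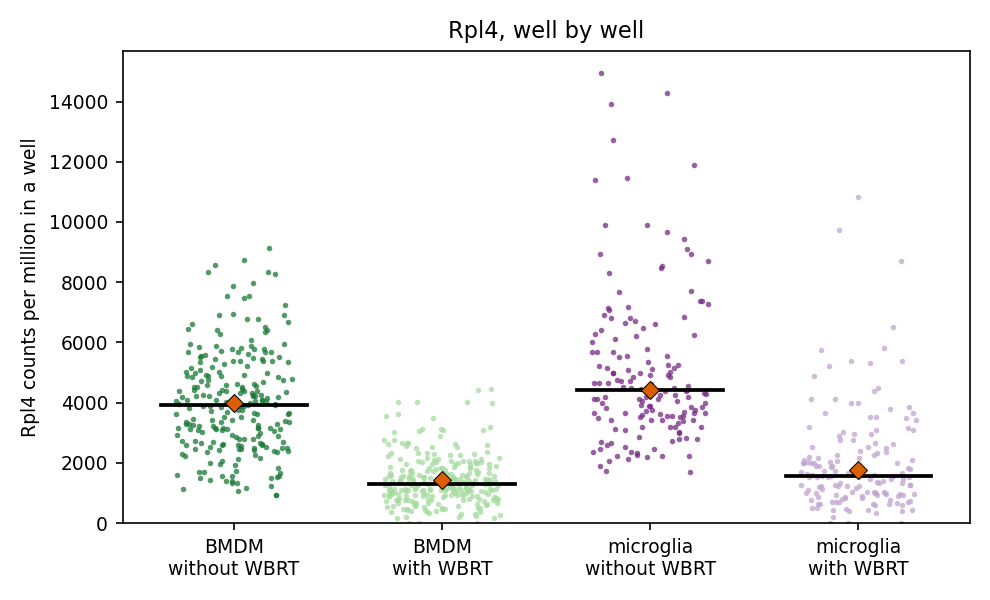
Rpl4 CPM (vertical axis) in each kept well on the 4 plates; bars are well medians (3923, 1298, 4421 and 1558 CPM) and diamonds pooled levels. Most wells of the plates with WBRT lie under the medians of the plates without it.

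Other members at the low end were shared by both sorts. Rps26, a small subunit protein at the mRNA exit channel, had 880 and 381 CPM in BMDM and 748 and 378 CPM in microglia, with log2 ratios of -1.20 and -0.98. Rpl36, a large subunit protein, had 852 and 456 CPM in BMDM and 626 and 322 CPM in microglia, with log2 ratios of -0.89 and -0.95. Rps7, a small subunit protein also known to bind Mdm2, had 1794 and 1005 CPM in BMDM and 1404 and 755 CPM in microglia, at -0.83 and -0.89. In all of these both plates with WBRT lay below both plates without it. This follows largely from their choice by low log2 ratios, and it also held for other members such as Rps29, Rpl17 and Rps20. In BMDM Rpl13a, Rpl14, Rpl32 and Rps14 completed the lowest 8, at -0.81 to -0.83. In microglia Rpl9, Rpl28, Rps18 and Rps28 completed them, at -0.78 to -0.86.

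At the other end, some members were hardly different. Rpl10 had log2 ratios of -0.01 in BMDM and -0.07 in microglia, and both counting intervals included no difference. Rpl29, a large subunit protein, had 372 and 408 CPM in BMDM and 396 and 370 in microglia, at 0.13 and -0.10, neither past counting error. Rpl7 was at -0.11 and -0.10 and Rpl10a at -0.10 in both sorts. Rpl5, of the same 5S particle as Rpl11, was at -0.12 in BMDM, where Rpl11 was at -0.56. Rpl3, which lies near the peptidyl transferase center, was at 0.00 in BMDM, with 930 and 933 CPM, and at -0.64 in microglia, with 1004 and 643 CPM. Whether this difference between sorts exceeds plate-to-plate spread was not tested.

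Rpl37 had few counts, and in BMDM it had the lowest log2 ratio of the members tested. It had 69 counts (54.5 CPM) in BMDM without WBRT and 21 (8.36 CPM) with it, a log2 ratio of -2.16 and a 6.52-fold difference (3.95 to 11.2). In microglia it had 62 counts (70.9 CPM) and 17 (26.2 CPM), a log2 ratio of -1.28 and a 2.71-fold difference (1.56 to 4.94). After thinning each well to 1000 molecules the microglia ratio was -0.18 and the BMDM ratio -1.47. Its row carries far fewer counts than those of most core members, and whether it holds all transcripts of the gene was not tested.

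Wells were grouped into clusters on variable genes without any ribosomal protein row, so member levels took no part in forming them. Clusters are named only where marker genes allow, and the naming limits were set with results of these data known. All 3 dendritic cell-like clusters were also enriched in monocyte markers. In the Cd209a-led one, enriched monocyte markers (Ccr2, Plac8, Lsp1, Crip1, S100a4, S100a11, Tgfbi, Cytip and Vim) outnumbered dendritic cell markers (Flt3, Cd209a and Cd7). Its name rests on its leading genes, which held Cd209a and Cd7 but also the monocyte marker S100a4. In the Ccr7-led one, monocyte markers (Itga4, Lsp1, Crip1, S100a4, S100a11 and Cytip) also outnumbered dendritic cell markers (Flt3, Ccr7, Fscn1, Batf3 and Ccl22). Over clusters with at least 10 wells on a plate, pooled shares ranged from 12.2% in the Xcr1-led dendritic cell-like cluster of BMDM without WBRT to 4.29% in a microglia-like cluster led by Adamts1 and Tnf on microglia with WBRT. The BMDM plate without WBRT had 43, 36 and 34 wells in the 3 dendritic cell-like clusters and 3 in the border-associated macrophage-like cluster. The BMDM plate with WBRT had 25, 0 and 4 in the former and 166 in the latter, where the share was 6.41%. That border-associated macrophage-like cluster was enriched in Mrc1, Pf4, F13a1, Cbr2 and Stab1, but not in Cd163, Folr2 or Lyve1 of the same list. It was also enriched in the monocyte markers Ccr2, Tgfbi, Ms4a7 and Vim, so its name does not set it apart from recruited macrophages. Leaving out dendritic cell-like wells gave BMDM shares of 7.99% and 6.12%, and a median log2 ratio with WBRT of -0.37.

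Within clusters that both plates of a pair filled, the member median varied while Rpl4 stayed lower. In the Cd209a-led dendritic cell-like cluster (25 BMDM wells with WBRT and 43 without), the shares were 9.76% and 10.5%, the member median log2 ratio was -0.03, and Rpl4 was at -0.99, with 2122 and 4217 CPM. In an unnamed BMDM cluster (15 and 40 wells), the shares were 5.48% and 8.74%, the median was -0.71 and Rpl4 was at -1.48. In the microglia-like cluster led by Cst7 (64 and 61 microglia wells), the shares were 7.71% and 9.38%, the median was -0.22 and Rpl4 was at -1.39, with 2125 and 5566 CPM. Medians over all genes in these clusters were 0.09, 0.13 and -0.04. Wells of the unnamed cluster had median depths of 2147 counts with WBRT and 3387 without, and those of the Cst7-led cluster 2137 and 1916. Over the whole plates, median depths with and without WBRT were 8894 and 4388 in BMDM and 2546 and 4789 in microglia. The part of depth in these differences was not tested.

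**Figure D5:**
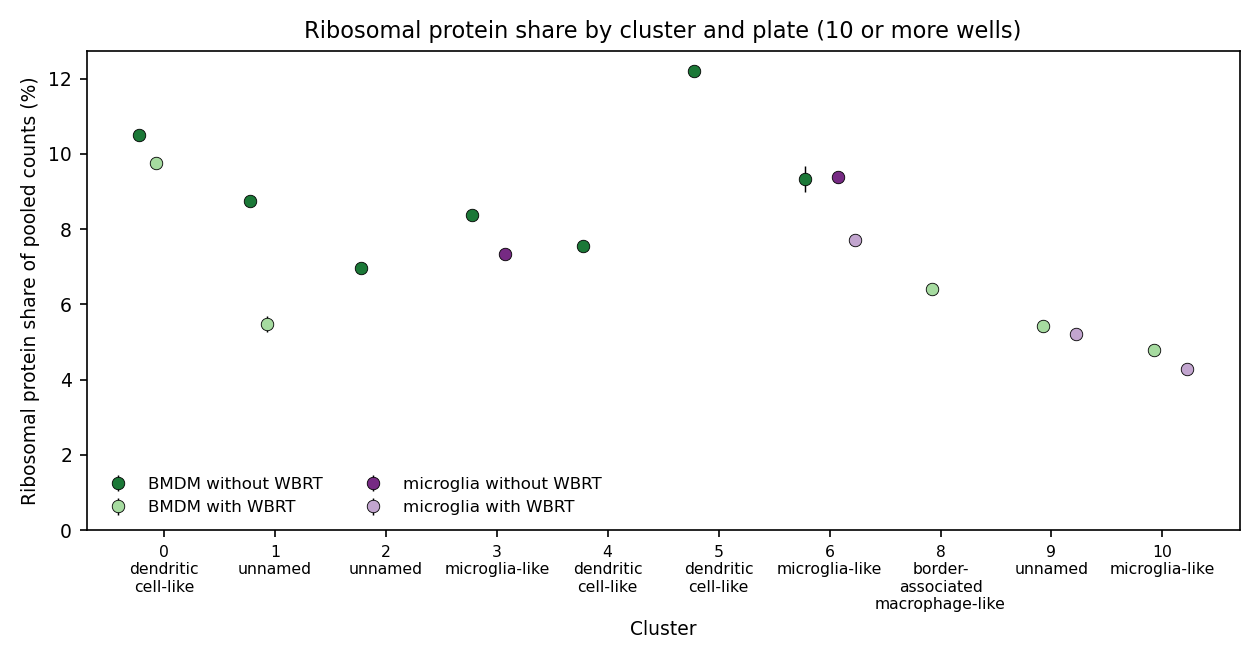
Ribosomal protein share of pooled counts (%) by cluster (horizontal axis) and plate (color), for units of at least 10 wells, with 95% counting intervals that are mostly smaller than the points. Shares run from 12.2% in cluster 5 to 4.29% in cluster 10, and in clusters 0, 1 and 6 the plate with WBRT lies below its partner.

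Taking every plate and cluster with at least 10 wells as a unit gave 9 units without WBRT and 8 with it. These are units of 4 libraries, not replicates. Rpl4 ranged from 3135 to 5566 CPM over the units without WBRT and from 1094 to 2125 CPM over those with it, with no overlap. Rps26 ranged from 621 to 1257 CPM and from 216 to 568, and Rpl36 from 619 to 1173 and from 248 to 611, also without overlap. These were the 3 such members among 69 with at least 100 CPM on a plate, and none had all units with WBRT higher. Over all 2156 genes of that level, 0.510% had every unit with WBRT lower than every unit without, and 0.186% every one higher. Rpl37, below that floor, ranged from 34.3 to 76.8 CPM without WBRT and from 0 to 32.2 with it. The gap was wide for Rpl4 (3135 against 2125 CPM). It was narrow for Rps26 (621 against 568), Rpl36 (619 against 611) and Rpl37 (34.3 against 32.2). No counting interval was set on unit values, so whether the narrow gaps exceed counting error was not tested. Rpl10, with 1399 to 2547 and 1385 to 2729 CPM, overlapped almost fully.

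The genes most like the departing members were read off the same 17 units as the highest Pearson correlation of log2 levels among genes with a mean of at least 100 CPM. These correlations describe units that share plates. Rpl4 and Rpl37 were singled out for lower levels with WBRT. Genes also lower in the units with WBRT therefore rank high by that choice, and a link between them was not tested. For Rpl4 the first was Ly6a, an interferon-inducible surface protein gene, at 0.93, with pooled levels of 361, 10.4, 193 and 1.54 CPM. Then came Rps26 (0.92), Rpl32, Rps15, Rps20, Irf7, Tapbp, Isg15, Rpl11 and Rpl14 (0.84). Irf7, a regulator of type I interferon genes, had 437, 146, 334 and 43.1 CPM, and Isg15, an interferon-induced ubiquitin-like protein gene, 219, 41.0, 138 and 32.4 CPM. Irf7 and Ly6a were also among the genes most like Rps26, both at 0.91, so they were not particular to Rpl4. For Rpl37 the first was Rpl4 (0.86), followed by Hspe1 and Ccl5.

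Without WBRT, members were mostly higher in BMDM than in microglia. Of 72 members, 63 were higher in BMDM, beside 51.1% of all genes, and 55 were higher past counting error, beside 22.8%. The other 9 were lower, beside 48.9% of all genes, 2 of them past counting error, beside 20.8%. The median was 0.27, beside 0.02 over all genes. Rps9 was highest among the abundant members, with 2984 CPM in BMDM and 1831 in microglia and a log2 ratio of 0.70, or 0.27 without dendritic cell-like wells. Rpl18 was at 0.64, and Rps19, Rpl27, Rps14, Rps4x and Rps23 at 0.48 to 0.52. Without dendritic cell-like wells the median was 0.10 and 21 members were lower in place of 9. With wells weighted alike the median was 0.14 and 19 were lower. The share of all genes that were lower was 48.9% in the pooled counts and was not computed for these 2 settings. In cells of the Cst7-led microglia-like cluster on both plates (10 and 61 wells) the shares were 9.32% and 9.38%. The member median was 0.00, beside 0.04 over all genes. In the larger microglia-like cluster led by C4b (14 and 88 wells) they were 8.37% and 7.34%, a 1.14-fold difference (1.12 to 1.16). The median there was 0.18, beside -0.03 over all genes. In that cluster 14 of 72 members were lower in BMDM, beside 51.3% of all genes.

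With WBRT, 64 of 71 members were higher in BMDM, beside 54.1% of all genes, and 55 were higher past counting error, beside 21.6%. The median was 0.29, beside 0.07 over all genes. It was 0.08 with wells weighted alike, where 27 members were lower in BMDM in place of 7 (beside 45.9% of all genes in the pooled counts), and 0.67 among wells with at least 1000 CPM of Malat1. In an unnamed cluster led by Slc40a1 (20 and 47 wells) the shares were 5.42% and 5.21%. The member median there was 0.04, beside -0.26 over all genes, and 33 of 72 members were lower in BMDM, beside 57.3% of all genes. In the microglia-like cluster led by Adamts1 (20 and 32 wells) the shares were 4.78% and 4.29%. The member median was 0.15, beside -0.04 over all genes. Rpl36al led at 0.71, with Rps28 at 0.60 and Rps9 at 0.56. Rpl4 lay below the members' median in both comparisons of sorts, at -0.15 and -0.28.

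Rps27l, a paralog of Rps27 known as a p53 target, differed from the pattern of the other members. It had 204, 147, 86.9 and 120 CPM. Without WBRT it was 2.35-fold higher in BMDM than in microglia (1.81 to 3.07), the only member past 2-fold upward there, beside 10.3% of all genes. With WBRT it was lower in BMDM, at a log2 ratio of -0.46, and higher in microglia, at 0.45 on 78 and 76 counts, which was not past counting error. Among BMDM wells without WBRT, the 36 of the Ccr7-led dendritic cell-like cluster held 948 CPM. The Xcr1-led cluster held 238 CPM, and the other clusters of that plate with at least 10 wells held 68.7 to 143 CPM. That Ccr7-led cluster had no well on the BMDM plate with WBRT. Without it the BMDM log2 ratio with WBRT was 0.24 in place of -0.46, and the ratio of BMDM to microglia without WBRT was 0.49 in place of 1.18. Within the Cd209a-led cluster it had 68.7 CPM without WBRT and 173 with it, a log2 ratio of 1.27. It was at 0.37 in the unnamed BMDM cluster and at -0.15 in the Cst7-led microglia-like cluster, against 0.45 over the whole microglia plates. Over wells its correlation with the summed level of the other members was 0.04, 0.20, 0.04 and -0.09.

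Ribosome components named outside the symbol rule were looked at beside the members. The stalk protein gene Rplp1 had 2667, 1804, 2814 and 1943 CPM, at log2 ratios of -0.56 in BMDM and -0.53 in microglia. Rpsa, which encodes a small subunit protein also known as the laminin receptor, was at -0.65 and -0.42. Gnb2l1, the scaffold protein RACK1, was at -0.05 in BMDM, not past counting error, and at -0.41 in microglia. Fau, a ubiquitin-like fusion with a small subunit protein, had 2347, 1452, 1851 and 1141 CPM, at -0.69 and -0.70. Rplp0, with 1626, 1615, 1277 and 1240 CPM, was at -0.01 and -0.04, neither past counting error. The row of Rplp2 held at most 16.9 CPM and is taken as not measuring that gene.

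Other genes of translation showed smaller or no common difference. For elongation factors and further TOP genes, 12 of 15 were lower with WBRT in BMDM, beside 44.1% of all genes, and 9 of 15 in microglia, beside 46.3%, with medians of -0.18 and -0.17. Past counting error 9 and 6 were lower, beside 21.0% and 17.0% of all genes, and 2 and 0 higher, beside 25.9% and 19.3%. These shares of all genes are also the background for the gene lists that follow. Eef1b2, a nucleotide exchange factor of elongation, had 917 and 575 CPM in BMDM and 885 and 604 CPM in microglia, at -0.67 and -0.55, whereas Eef1a1, the main elongation factor, had 2979, 2748, 2599 and 2491 CPM. For 24 initiation factors the medians were 0.09 and -0.05, and past counting error 2 were lower and 4 higher in BMDM, and 3 lower and 1 higher in microglia. Eif5 was at 0.66 and Eif4g2 at 0.59 in BMDM. Mitochondrial ribosomal proteins, which serve a separate ribosome, had medians of 0.11 over 37 genes in BMDM and 0.05 over 39 in microglia.

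Hosts of small nucleolar RNAs, many of them TOP transcripts, had medians with WBRT of -0.40 over 6 genes in BMDM and -0.44 over 7 in microglia. Past counting error 3 were lower in each sort, beside 21.0% and 17.0% of all genes, and 1 (Snhg1, at 0.37) was higher in BMDM and 0 in microglia. Gas5, which carries a TOP motif, had 335, 182, 429 and 187 CPM, at -0.86 in BMDM and -1.18 in microglia. For ribosome biogenesis genes the medians were 0.15 over 16 genes and -0.07 over 17, with 3 lower past counting error in each sort and 2 and 1 higher. Nop58, a core protein of box C/D particles, was at -1.09 and -1.07, and Emg1, a methyltransferase of 18S RNA, at 1.35 and 1.15. These rest on few counts. With and without WBRT, Emg1 had 90 and 14 counts in BMDM and 22 and 11 in microglia, and Nop58 had 22 and 67 in microglia. For regulators of ribosomal protein translation the medians were 0.18 over 10 genes and -0.04 over 11. Past counting error 1 was lower and 4 higher in BMDM, and 1 lower and 3 higher in microglia. The genes that were higher included restraints as well as activators of this pathway. Eif4ebp1, which blocks cap-dependent initiation until mTOR phosphorylates it, was at 0.47 and 0.73, and Tsc2, a brake on mTOR, at 0.53 and 1.17. In BMDM Mtor itself was at 0.86 and Rheb, which activates it, at 0.41, and in microglia Rptor, a subunit of the mTOR complex, was at 0.81.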

How the data were processed

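Single sorted cells were processed on 384-well plates by a provider, per the labels' protocols, with unique molecular identifiers. The files hold estimated counts per gene and well, deposited by the authors; the values equal, within 0.005, observed identifiers corrected for collisions among 4096 possible ones. GRCm38 is named in the submitters' processing notes; no source used here gives the aligner, annotation or strand setting. Values were used as deposited and not rounded, except for TMM factors (edgeR 4.0.16) and binomial or Poisson intervals. Wells were kept with at least 1000 counts outside ERCC and mitochondrial rows and an ERCC share under 50%, and summed per plate. CPM were taken over all rows but ERCC. No doublet caller was run. Ratios used a pseudocount of 5 CPM and a floor of 20 CPM on 1 plate. With 1 plate per group no test was made; exact binomial intervals of shares and of count ratios were checked on simulated data. Clusters came from scanpy 1.11.5 by the Leiden method at resolution 1, on 15 neighbors in 30 components of 2000 variable genes, with ribosomal protein, mitochondrial and cell cycle genes left out.

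Members, gene lists and markers were chosen with earlier results of these data known. Named members are the 10 of highest mean, the 8 highest and lowest log2 ratios per comparison, those over 1 from the members' median, paralogs, and up to 4 genes per list; Rpl4, Rps26, Rpl36, Rps27l and the printed promoters were singled out after values were seen. Python 3.11.15, SciPy 1.17.1 and RefSeq tables (GRCm38.p6) were used. No protein sequences were used here, and results of some genes are not reported here. Alternatives were well filters, weighting, thinning, denominators, TMM, pseudocount and floor.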

Additional observations from a re-analysis of the deposited data

Results flagged for a closer look

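A total of 4 members with at least 100 CPM on a plate had log2 ratios with WBRT of opposite sign in the 2 sorts. The ratio in microglia minus that in BMDM was 0.90 for Rps27l, -0.64 for Rpl3, -0.28 for Rpl36al and -0.23 for Rpl29. The ratio of BMDM to microglia had opposite sign without and with WBRT for 5 members. With WBRT minus without, it differed by 0.64 for Rpl3, -0.46 for Rpl13a, -0.29 for Rps10, 0.23 for Rpl29 and 0.21 for Rpl15. None of these differences was tested, since each group is 1 plate, and values near 0 change sign within counting error. The share of all genes with opposite signs was not computed, so these counts are not a result particular to the members.

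The 4 pseudogene rows with symbols of Rpl or Rps followed by a number, which no comparison used, held counts on every plate. Their summed levels were 60.0 CPM in BMDM without WBRT, 24.3 in BMDM with WBRT, 84.6 in microglia without WBRT and 44.7 in microglia with WBRT. Rplp2-ps1, a pseudogene row outside that pattern, is not in these sums. It had 13.4, 5.57, 26.3 and 6.16 CPM in the same order.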

How the results depend on the processing

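All 4 medians kept their sign under the alternatives run: -0.51 to -0.36 with WBRT in BMDM, -0.82 to -0.28 in microglia, 0.10 to 0.34 for BMDM over microglia without WBRT and 0.08 to 0.67 with it. Rpl4 stayed between -1.52 and -1.46 in BMDM and between -1.61 and -1.30 in microglia. The following moved beyond counting error, and the cause was not tested. For a median over members, the limit was the median of the members' own interval bounds. That is the width for a typical single gene, wider than the counting error of a median, so smaller shifts are not listed. Counts of members were judged by fold change instead. Where all 4 shares moved they are given for BMDM and then microglia, without WBRT before with WBRT in each. With wells weighted alike they were 8.78%, 6.59%, 8.15% and 6.25%, and the medians 0.14 and 0.082 for BMDM over microglia without and with WBRT and -0.30 for WBRT in microglia. After thinning they were 8.74%, 6.61%, 8.09% and 6.23%, with medians of 0.10 for BMDM over microglia with WBRT and -0.28 for WBRT in microglia. Then 22 and 28 members were lower in BMDM, without and with WBRT. Of all genes, 48.9% and 45.9% were lower in the pooled counts before thinning. With at least 3000 counts the shares were 9.35% in BMDM without WBRT, 7.51% in microglia without and 4.75% in microglia with WBRT, and the median of BMDM over microglia with WBRT was 0.49. With Malat1 of at least 1000 CPM they were 6.40% in BMDM with WBRT, 7.43% and 4.06% in microglia without and with it, and the medians were 0.67 for BMDM over microglia with WBRT and -0.82 for WBRT in microglia. Leaving out Rn45s and Mir5109 gave 9.32% and 6.67% in BMDM and 5.54% in microglia with WBRT. Observed identifiers gave 6.58% in BMDM with WBRT. At least 500 counts, or no ERCC limit, gave 5.47% in microglia with WBRT. Clusters named for the plate's own sort gave 6.41% in BMDM and 5.55% in microglia with WBRT; this could not be run for BMDM without WBRT, which had 3 such wells.

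Further alternatives were chosen after seeing the data. Without mitochondrial counts the shares were 10.1%, 7.07%, 8.54% and 5.95%. Without cluster 2, led by Kcnq1ot1 among others, they were 9.72%, 6.61% and 7.76% in all but microglia with WBRT. Without cluster 4, led by Ccr7, the share was 9.32% in BMDM without WBRT. Without dendritic cell-like wells it was 7.99% and 6.12% in BMDM and 5.49% in microglia with WBRT, and the median of BMDM over microglia without WBRT was 0.10. With an ERCC share under 20% it was 7.55% and 4.75% in microglia, and the median of BMDM over microglia with WBRT 0.48. Among single genes, 6 values changed sign. Rps27l with WBRT in BMDM became 0.53 without dendritic cell-like wells and 0.24 without cluster 4. Rpl10 in BMDM became 0.082 with wells weighted alike and 0.069 after thinning, and Rpl29 in microglia 0.18 and 0.26. No paired analysis was possible because each group is 1 plate, and no replicate could be left out. Depth limits the rows under 100 counts, such as Rpl37 and Rps27l in microglia.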
